A study of Drosophila melanogaster with 5 samples.

Results

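Transcript levels in gastrula embryos (stages 6 to 7, S6-7) were compared with those in syncytial blastoderm embryos (stages 2 to 3, S2-3) for the 259 genes printed as clones of a subtracted cDNA library. All embryos were Drosophila melanogaster of the wild-type strain Canton-S, hand-selected by their morphology, with no mutation, transgene or treatment in either group. Whole embryos were pooled for RNA, the labels giving 100 embryos for an extraction, and amplified SMART-cDNA labeled with 32P was hybridized to nylon membranes. The members were all spots that carry a gene number, with control spots left out, on the 4 membranes of S6-7 and the 4 of S2-3, which are 8 of the 20 membranes of the study. The print held 295 duplicated library clones on A, B and C and 579 on D, so each S6-7 membrane was set against the S2-3 membrane of its own letter. Of the 259 genes, 243 were on all 4 letters, 15 on D only and 1 on A to C only. Each stage was deposited as 1 sample, and nothing states that its 4 membranes came from separate embryo pools, so the errors and p-values given here cover differences between membranes and not between embryo pools. The methods describe 2 independent rounds of labeling and hybridization and do not say which membranes each round held, so membranes of a stage may share a probe and the letters may not be independent.

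In the syncytial blastoderm the nuclei divide without cell membranes and live largely on RNA that the mother placed in the egg. Zygotic transcription then takes over, cells form around the nuclei, and at gastrulation the ventral cells fold inward to make the mesoderm while the germ band begins to extend. Patterning factors, cell surface proteins and regulators of the cytoskeleton are among the products the embryo makes for these movements. The library was obtained by subtraction between the same 2 stages, to hold transcripts more abundant in gastrula, so a higher level at S6-7 over the library as a whole is not independent of how its clones were obtained.

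The printed controls were read first. Spots of the housekeeping gene RP49 passed the signal rule, a signal at least 1 SD above the mean local background, in 46 of 46 cases at S6-7 and 45 of 46 at S2-3. Mesoderm controls passed more often in gastrula, and so did library spots on every letter, from 56.8% to 92.2% at S6-7 against 22.7% to 64.9% at S2-3. Spots of twi, a transcription factor that specifies the mesoderm, passed in 19 of 34 cases at S6-7 and 5 of 34 at S2-3. Spots of its partner sna passed in 6 of 34 cases at S6-7 and 0 of 34 at S2-3, and those of tin, a homeodomain factor of heart and visceral muscle, in 22 of 34 at S6-7 and 8 of 34 at S2-3. The control fragment of Sry-alpha, a gene of cellularization, passed in 17 of 30 cases at S6-7 and 0 of 30 at S2-3. Over RP49, the log2 differences of twi, sna, tin and Sry-alpha were 0.57, 1.17, 0.11 and 0.24 on membrane C. On A they were 2.36, 1.71, 1.62 and 2.70, and on B 1.06, 2.29, 1.67 and 1.65. On D, twi, sna and tin had 2.21, 4.83 and 5.73. Unlike the gene values below, these control differences include spots under the signal rule. On D of S2-3, twi, sna and tin each passed in 0 of 4 spots, and twi in 0 of 4 at S6-7 as well. On B, sna passed in 0 of 10 spots at either stage. The sizes of such differences rest on signals near background. Spots of dl, whose product reads the dorsoventral axis from maternal RNA, passed almost equally, in 18 of 34 cases at S6-7 and 17 of 34 at S2-3. Over RP49, however, dl differed by 0.60 on A and by -0.57, -0.76 and -1.08 on B, C and D. Spots of fog, which triggers constriction of invaginating cells, passed on no membrane of either stage. Solvent spots passed in 51 of 560 cases at S6-7 and 2 of 560 at S2-3, 50 of the 51 on membrane A of S6-7. These counts come from whole embryos, in which fewer cells of a type and less RNA per cell cannot be told apart.

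**Figure D1:**
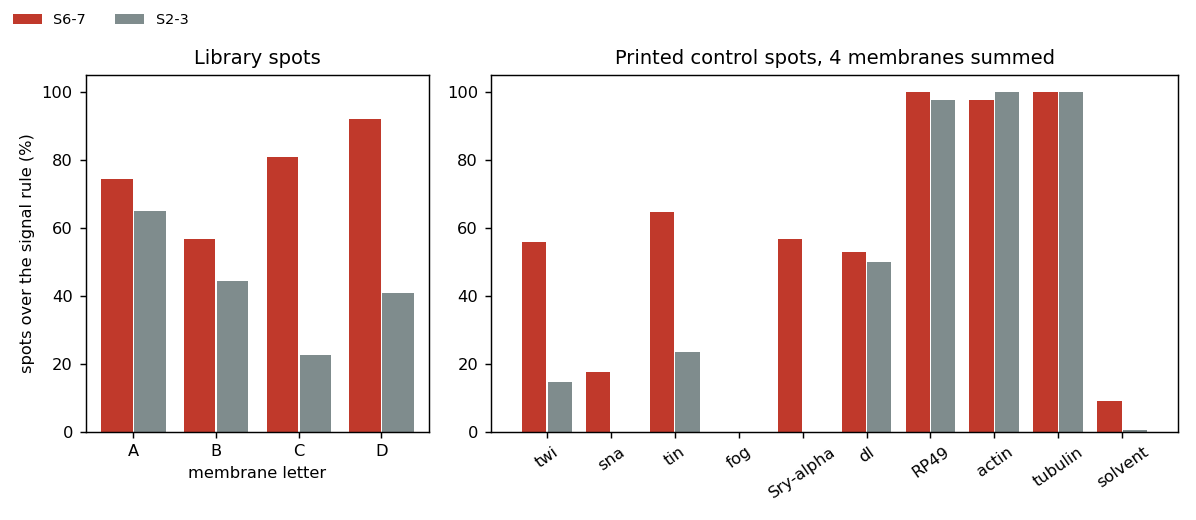
Share of spots over the signal rule, in percent, for library clones on each membrane letter (left) and for printed controls with the 4 membranes summed (right), with S6-7 in red beside S2-3 in gray. On every letter more library spots passed at S6-7 than at S2-3, from 56.8% to 92.2% against 22.7% to 64.9%. RP49, actin and tubulin passed in nearly all cases at both stages. These shares are not scaled to RP49, whose net signal on C was 0.67 at S6-7 and 0.077 at S2-3.

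Before any scaling to RP49, more library spots passed the signal rule in gastrula. On membranes A, B, C and D, 74.4%, 56.8%, 80.9% and 92.2% of library spots passed at S6-7, against 64.9%, 44.4%, 22.7% and 40.9% at S2-3. As a result 217 genes were measured on at least 2 membranes of S6-7 and 155 on at least 2 of S2-3, and 2 genes were left with no value at S6-7 but 29 with none at S2-3. For 2 of the 29, nej and CG32982, a duplicate pair passed at S2-3 but its spots differed by more than the limit on duplicates. Each net signal was divided by the median RP49 signal of its membrane, and the log2 difference S6-7 minus S2-3 was taken within a letter. The 142 genes measured at both stages on at least 2 letters were tested, 33 of them on 4 letters, 67 on 3 and 42 on 2. A further 82 genes had both stages on 1 letter, 26 had no spot over the rule at S2-3, 8 had no letter with both stages and 1, trus, passed nowhere. Of the 8, mt:CoII, a mitochondrial gene of the respiratory chain, was the only one measured at S2-3 and not at S6-7, and that on 1 membrane.

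By limma with Benjamini-Hochberg adjustment, 8 of the 142 genes were higher at S6-7 (5.63%) and 0 were lower (0.0%). At an unadjusted p under 0.05 the numbers were 41 higher and 0 lower, and SAM, the test of the study's methods, gave 27 higher of 153 genes (17.6%) and 0 lower. A fit on all 20 membranes with the letter as a replicate block gave 31 higher of 153 (20.3%) and 0 lower. The 8 genes were Ama, skpA, CG17090, Tom, Lac, ena, roX1 and stumps, 17.6-fold or more higher for the first 4 and between 4.03-fold and 9.84-fold for the others. With a stricter signal rule of 2 background SDs, roX1 was the only one of the 8 that could be tested (difference 2.69, adjusted p = 0.154). Most of the remaining genes leaned the same way without passing: 112 of the 142 differences were above 0, and 70 genes (49.3%) were higher on every letter measured against 8 genes (5.63%) lower on every letter. A mean difference of at least 2-fold upward was seen for 47 genes (33.1%) and of at least 2-fold downward for 1 gene (0.704%). The median difference was 0.69 on the log2 scale (quartiles 0.12 and 1.27), close to the median SD between letters of 0.71. For 19 genes (13.4%) every S6-7 membrane lay above every S2-3 membrane, and for 1 gene, ATPsyn-d, every S6-7 membrane lay below.

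The membrane letters did not carry the same shift. The median difference over the genes compared was 0.85 on A (130 genes), 0.51 on B (109 genes), -0.57 on C (59 genes) and 1.02 on D (119 genes), so that 79.2%, 73.4%, 30.5% and 87.4% of genes were higher at S6-7 on A, B, C and D. On C the RP49 net signal itself was higher at S6-7, 0.669 against 0.0768 at S2-3, a log2 difference of 3.12 where A, B and D had 0.25, -0.22 and 0.40. The dap spike, a bacterial RNA added before cDNA synthesis, passed in 4 of 40 spots at S6-7 and 1 of 40 at S2-3 on membrane C, against 35 to 38 of 40 on A and B. The dap scaling used below takes the median of all 40 spots, passed or not, and on C that median had a log2 difference of 1.22. The part of this RP49 difference in the results was not tested. The other housekeeping controls did not follow RP49 on every letter. Relative to RP49, tubulin differed by 0.09, 0.52, -1.27 and 1.49 on A, B, C and D, and actin by 0.57, 0.07, -0.22 and -0.65. On D, therefore, tubulin and actin differed from RP49 in opposite directions. Across genes, as a description, the differences on A and B had a Pearson correlation of 0.83 over 100 genes, and those on A and D of 0.43 over 108 and on B and D of 0.54 over 90. Membrane C had 0.67 with B over 43 genes, 0.50 with A over 52 and 0.11 with D over 48. Genes on 1 membrane share its probe and its scaling. Without membrane C the same test called 24 of 134 genes higher (17.9%), the 8 among them. Without membrane B it called 4, namely Ama, Tom, Lac and ena, while skpA and CG17090 could not be tested. The scaling sets where 0 lies: with signals scaled to the 75th percentile of library spots the median difference was -0.40 and 0 genes were higher and 0 lower, and with quantile normalization it was -0.49 with 4 higher and 8 lower. Centering each letter on its median, an alternative chosen after the data were seen, called 15 genes higher (10.6%) and 5 lower. The differences below are relative to RP49 and are best read against the median of 0.69.

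**Figure D2:**
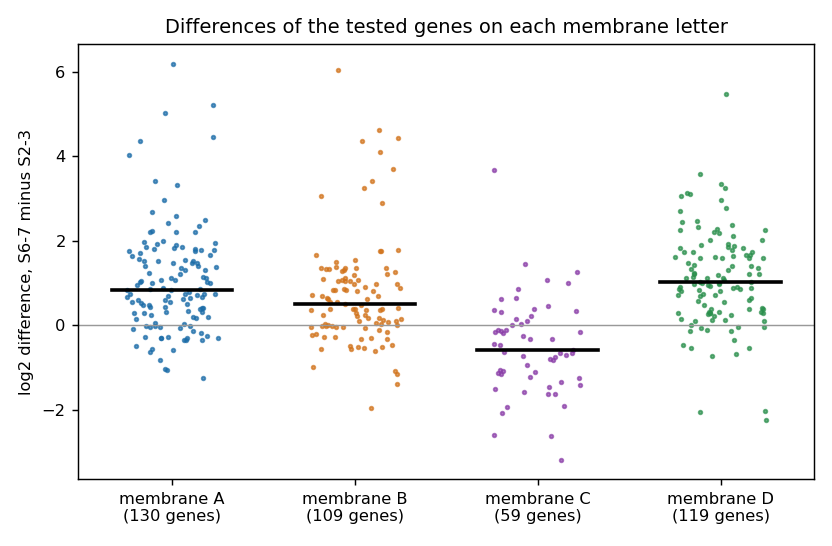
Log2 difference S6-7 minus S2-3 in signal over RP49 for each tested gene on each membrane letter, 1 point per gene, with the median as a black bar. The medians were 0.85 on A, 0.51 on B, -0.57 on C and 1.02 on D, and C holds the fewest genes (59).

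Ama (amalgam, CG2198) had the greatest increase of the tested genes. It encodes a secreted immunoglobulin-domain protein that binds the adhesion receptor Neurotactin. Its signal over RP49 was 5.59, 4.10, 1.67 and 4.02 on membranes A, B, C and D of S6-7, against 0.0768, 0.0627, 0.132 and 0.485 on the same letters of S2-3. Every S6-7 membrane lay above every S2-3 membrane, by at least 3.05 log2 units on each letter, and Ama was the only one of the 8 genes measured at both stages on C. The mean log2 difference was 4.73 (SE 0.61, n = 4 letters, adjusted p = 0.0131), a 26.6-fold increase, or 4.05 above the median of all tested genes. At S2-3 5 of its 10 spots passed, at S6-7 all 10.

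Another immunoglobulin-superfamily gene, Lac (Lachesin, CG12369), whose membrane-anchored product is needed at septate junctions, was also up-regulated. Lac measured 1.50, 1.34 and 1.94 on A, B and D of S6-7, against 0.140, 0.181 and 0.162 at S2-3. The stages did not overlap, and the letters differed little among themselves, from 2.89 to 3.58. Each S2-3 value rests on 1 passing spot, of 2 on A, 2 on B and 4 on D. The mean difference was 3.30 (SE 0.37, n = 3 letters, adjusted p = 0.0131), a 9.84-fold increase.

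The third up-regulated gene of the surface and guidance group was ena (enabled, CG15112), a regulator of actin filament growth that acts downstream of guidance receptors. Its signal was 1.68, 1.70, 1.06 and 0.976 on A to D of S6-7, against 0.214 on A and 0.126 on D of S2-3, where B and C gave no spot over the rule. All S6-7 membranes lay above both S2-3 membranes, where 1 of 2 duplicate spots passed on each. The difference was 2.97 on A and 2.96 on D (mean 2.96, SE 0.47, n = 2 letters, adjusted p = 0.0426), or 7.81-fold. It did not pass with quantile normalization (adjusted p = 0.139), and over all alternatives the adjusted p ran from 9.96e-06 to 0.139.

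Tom (Twin of m4, CG5185), a Bearded family gene whose small protein restrains Notch ligand activity through Neuralized, measured 5.08, 2.85, 1.81 and 1.30 on A to D of S6-7, against 0.138, 0.165 and 0.151 on A, B and D of S2-3. The S2-3 values lay close together and far below all S6-7 values. The mean difference was 4.14 (SE 0.50, n = 3 letters, adjusted p = 0.0131), a 17.6-fold increase.

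stumps (CG31317), an adaptor of the fibroblast growth factor receptor in mesoderm and trachea, had the smallest increase among the 8. It measured 0.523, 0.338, 0.163 and 0.644 on A to D of S6-7, against 0.103, 0.107 and 0.158 on A, B and D of S2-3. All S6-7 membranes lay above the S2-3 ones, but membrane C of S6-7 exceeded the highest S2-3 value only slightly. The mean difference was 2.01 (SE 0.36, n = 3 letters, adjusted p = 0.0426), a 4.03-fold increase. Leaving out A took its adjusted p to 0.168 and leaving out B to 0.11, and over all alternatives the adjusted p ran from 0.00223 to 0.461.

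skpA (CG16983), a core subunit of SCF ubiquitin ligases, measured 2.22, 2.14 and 0.954 on A, B and C of S6-7, against 0.101 on A and 0.104 on B of S2-3. All S6-7 values lay above both S2-3 values. The differences of 4.47 and 4.36 averaged 4.41 (SE 0.47, n = 2 letters, adjusted p = 0.0131), or 21.3-fold, and each S2-3 value came from 1 of 2 duplicate spots.

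CG17090, the homeodomain-interacting protein kinase Hipk in current annotation, measured 1.28, 3.10, 0.575 and 1.16 on A to D of S6-7, against 0.0622 on A and 0.143 on B of S2-3. Again the stages did not overlap. Its differences of 4.37 and 4.44 averaged 4.40 (SE 0.47, n = 2 letters, adjusted p = 0.0131), or 21.1-fold. Both skpA and CG17090 rest on letters A and B and had no spot over the rule on C or D of S2-3. On D of S6-7, CG17090 passed in 2 of 2 spots but skpA in 0 of 2, so skpA was under the rule at both stages on D.

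roX1 (CR32777), a non-coding RNA of the complex that raises transcription of the male X chromosome, measured 0.708, 0.853, 0.219 and 1.21 on A to D of S6-7, against 0.071, 0.0893 and 0.262 on A, B and D of S2-3. Within each letter S6-7 was higher, but C of S6-7 lay below D of S2-3. The mean difference was 2.93 (SE 0.41, n = 3 letters, adjusted p = 0.0148), a 7.60-fold increase. On membrane D 6 of its 9 clones gave both stages, and their differences ran from 1.38 to 3.04. Without membrane B it did not pass (adjusted p = 0.0756), and over all alternatives the adjusted p ran from 5.81e-06 to 0.154.

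**Figure D3:**
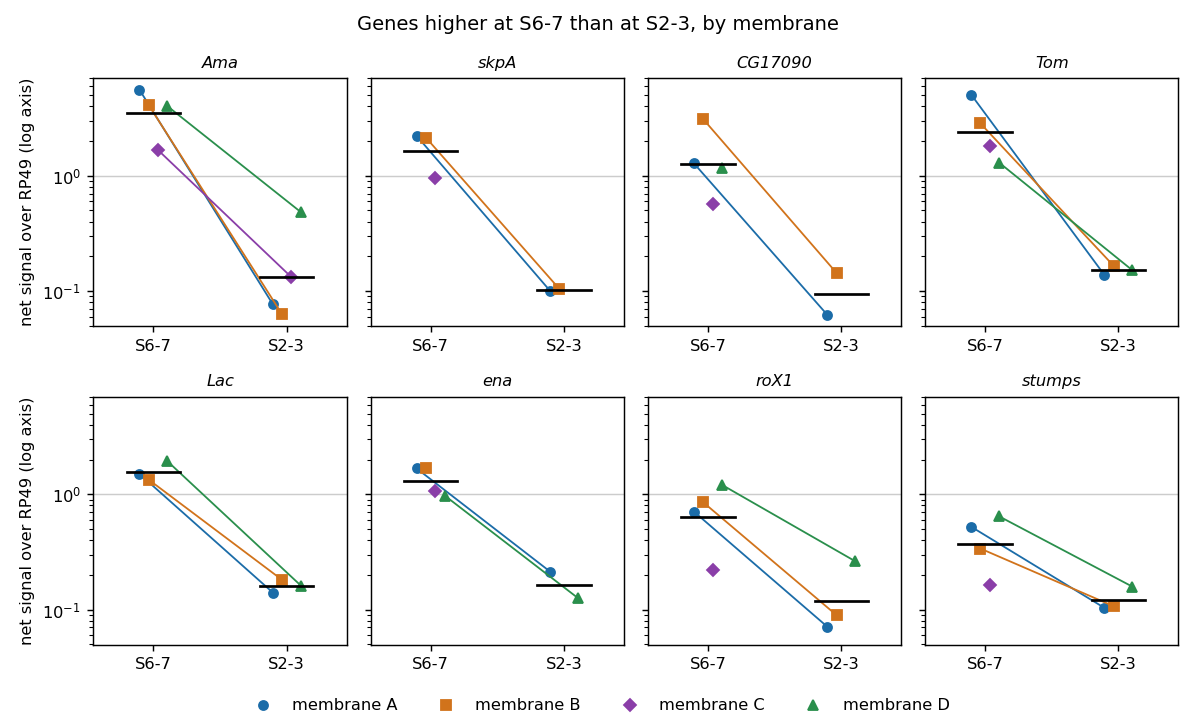
Net signal over RP49 (log axis) of the 8 genes that were higher at S6-7, on each membrane of S6-7 (left in each panel) and S2-3 (right). Lines join membranes of 1 letter and black bars mark the mean of the log2 values; in all panels but roX1 every S6-7 membrane lies above every S2-3 membrane, and membrane C of S2-3 is measured for Ama only.

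Another 13 genes had differences above 0 with an adjusted p from 0.05 to 0.1, and no gene below 0 had one under 0.238. The nearest was Thor, the translation inhibitor 4E-BP. Thor measured 0.377, 0.248, 0.137 and 0.841 on A to D of S6-7, against 0.0997, 0.0852 and 0.129 on A, B and D of S2-3, and all S6-7 membranes lay above the S2-3 ones. Its mean difference was 2.06 (SE 0.40, adjusted p = 0.0509). Without membrane C it passed (adjusted p = 0.023), and over all alternatives the adjusted p ran from 0.000668 to 0.406.

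sala, a gene next to the spalt locus, showed the disagreement of membrane C most plainly. It measured 2.96, 2.43, 1.10 and 1.67 on A to D of S6-7, against 0.091, 0.0991, 1.24 and 0.175 on the same letters of S2-3. On A, B and D its differences were 5.03, 4.61 and 3.25, and on C -0.18, for a mean of 3.18 (adjusted p = 0.0747). Without membrane C the mean was 4.30 (adjusted p = 0.00743). Separate control spots of sala on membrane D, 4 per stage, had a difference of 3.93.

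CG10035, which had 23 clones on membrane D, measured 1.69, 1.73, 0.758 and 1.17 on A to D of S6-7, against 0.134 on B and 0.305 on D of S2-3. All S6-7 values lay above both S2-3 values, with a mean difference of 2.81 (SE 0.63, n = 2 letters, adjusted p = 0.0747). The 6 clones that gave both stages on D differed by 1.00 to 3.03. Nrt, the transmembrane receptor of Amalgam, measured 1.65, 0.383 and 1.03 on A, C and D of S6-7, against 0.101, 0.113 and 0.341 on A, B and D of S2-3. Its stages did not overlap either, and the differences of 4.03 on A and 1.59 on D averaged 2.81 (SE 0.74, adjusted p = 0.104).

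In the group of adhesion, guidance and surface genes 13 members were printed, 8 were tested and 3 rose, beside 5.63% of all tested genes. All 8 differences were above 0, with a median of 2.00, which is 1.31 above the median of all genes. Under quantile or 75th percentile scaling 7 of 8 stayed above 0, and 2 and 0 passed. This list and those below were drawn up with earlier results of these data known, so their counts and medians are not independent evidence for a group. With the dap spike on A to C the median of the 6 members tested was 1.61, or 0.66 above that of all genes. Apart from Ama, Lac, ena and Nrt, the members were Gp150, a leucine-rich-repeat glycoprotein (1.19, adjusted p = 0.121), lea, the Slit receptor Robo2 (1.14, adjusted p = 0.256), trn, the leucine-rich-repeat protein Tartan (0.80, adjusted p = 0.489), and beat-IIIc, of the Beaten path family (0.21, adjusted p = 0.689). Membrane C gave negative differences for Gp150, lea, trn and beat-IIIc, of -0.13, -0.65, -0.94 and -0.32. Without it Gp150 was 1.63 higher (adjusted p = 0.0243). Among untested members, Sr-CII, a scavenger receptor of hemocytes, differed by 4.26 on A, inx3, a gap junction protein, by 1.62 on D and drl, a Wnt receptor of axons, by 0.72 on A.

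Of the Bearded family, which had 3 genes on the membranes, BobA measured 0.480, 0.347, 0.146 and 0.960 on A to D of S6-7, against 0.0747, 0.102 and 0.863 on A, B and D of S2-3. It was higher on A (2.68) and B (1.77) and nearly level on D (0.15), with a mean of 1.53 (adjusted p = 0.148). Its 7 clones with both stages on D ranged from -2.46 to 2.96 with a median of 2.47, the widest range among genes with several clones. Ocho, the third member, had 0.30 on A and 1.31 on B (mean 0.81, adjusted p = 0.374). The median of the 3 genes was 1.53, and 1 of 3 rose, beside 5.63% of all tested genes. The median was 0.24 with 75th percentile scaling, 0.42 with quantile scaling and 2.37 with the dap spike on A to C.

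Segmentation and homeotic genes were 10 on the membranes and 4 in the test, of which 0 passed and 4 were above 0, with a median of 1.34. Kr (Krüppel), a gap gene, measured 0.183, 0.295, 0.0935 and 3.82 on A to D of S6-7, against 0.0835, 0.105 and 1.07 on A, B and D of S2-3. Membrane D was far brighter than the others at both stages, so the stages overlapped, but the within-letter differences were alike at 1.13, 1.50 and 1.84 (mean 1.49, SE 0.37, adjusted p = 0.0747). ptc, the Hedgehog receptor, differed by 1.38 (adjusted p = 0.115), nkd, a feedback inhibitor of Wnt signaling, by 1.30 (adjusted p = 0.298) and hth, a homeodomain cofactor of Hox proteins, by 0.58 (adjusted p = 0.391). The pair-rule genes h, slp1 and odd, measured at both stages on D alone, differed by 1.56, 1.17 and 0.41, and Antp, a homeotic gene, by 0.37 on A. The list's median was 0.14 with 75th percentile scaling and 0.04 with quantile scaling.

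Dorsoventral and mesoderm genes were 12 on the membranes and 5 in the test, and 1, stumps, rose, beside 5.63% of all tested genes. tld, the protease that releases Dpp from its inhibitor, differed by 0.98 (adjusted p = 0.25) and egr, the tumor necrosis factor Eiger, by 0.91 (adjusted p = 0.272). brk, a repressor of Dpp target genes, measured 0.454, 0.211, 0.0883 and 0.706 on A to D of S6-7, against 0.217, 0.214, 0.336 and 0.890 at S2-3. It was higher on A, level on B and lower on C and D, with a mean of -0.30 (SE 0.50, adjusted p = 0.698), or 0.24 without membrane C. CR32477, a non-coding gene, had 0.18, or -0.18 without membrane C. The median of the 5 was 0.91 and it turned to -0.07 with 75th percentile scaling and -0.14 with quantile scaling. On 1 letter alone, sog, the antagonist of Dpp, differed by 2.16, CG6234 (Dtg in current annotation) by 1.81, vn, which activates Egfr, by 1.19 and Ance, a peptidase of the amnioserosa, by 1.05 on D, and tup, a LIM-homeodomain factor, by 0.92 on A.

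Genes of cellularization and early zygotic transcription were 16 on the membranes and 8 in the test, of which 0 passed and 7 were above 0 (median 1.58). CG6479 measured 0.268, 0.337, 0.133 and 0.828 on A to D of S6-7, against 0.0897, 0.134 and 0.164 on A, B and D of S2-3, a mean difference of 1.75 (adjusted p = 0.0701). Only membrane C of S6-7 lay within the S2-3 range. CG12420 differed by 1.41 (adjusted p = 0.0755) and CG8960 by 1.81 (adjusted p = 0.0954), with all S6-7 membranes of CG8960 above those of S2-3. CG13427 differed by 0.67 on A and by 5.48 on D, for a mean of 3.07 with an SE of 1.23 (adjusted p = 0.196). SNCF measured 4.83, 3.43, 1.98 and 1.19 on A to D of S6-7, against 3.59, 2.11, 1.56 and 4.93 at S2-3. It was slightly higher on A, B and C and lower on D by 2.06, and the mean was -0.15 (SE 0.52, adjusted p = 0.878). On D alone, the averages of the library clones that passed at each stage differed by 1.64 for Sry-alpha and by -0.78 for CG13333. Of the 13 clones of CG13333 on D, only 2 gave both stages, and these differed by -0.12 and 0.61. Separate CG13333 control spots on D passed in 4 of 4 cases at S6-7 and 0 of 4 at S2-3.

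The 17 putative secreted or transmembrane proteins without a gene name, which the study itself chose on these samples and which are therefore not independent evidence of direction, had 11 members in the test. All 11 were above 0, 0 passed and the median was 1.63, with 9 of 11 above 0 under quantile or 75th percentile scaling. CG5059, a BNIP3 homolog, measured 0.349, 0.313, 0.129 and 0.741 on A to D of S6-7, against 0.1, 0.138 and 0.108 on A, B and D of S2-3 (mean difference 1.92, adjusted p = 0.0701), and C of S6-7 alone lay within the S2-3 range. CG17734 had 4 differences close together, 1.49, 1.36, 0.87 and 1.21 on A to D (mean 1.23, SE 0.29, adjusted p = 0.0701). Without membrane C, 6 of the 11 were higher, beside 17.9% of all genes tested in that setting, and 0 of the 11 passed under quantile or 75th percentile scaling.

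Genes of general cell function lay nearer to the median or below it. In the chromatin and dosage compensation group 9 of 9 printed genes were tested and 1, roX1, rose, beside 5.63% of all tested genes, and the group's median was 0.45. It turned to -0.35 with 75th percentile scaling and to -0.46 with quantile scaling, and was 0.98 without membrane C and 1.22 with the dap spike, which lie 0.17 and 0.28 above the medians of all genes under those settings. HmgZ, a high-mobility-group protein, differed by 1.34 (adjusted p = 0.104), and the chromatin remodelers Iswi, dom and Mi-2 by 0.59, 0.45 and 0.39. msl-2, the male-specific subunit that roX1 works with, differed by -3.17 on C and 1.25 on D, a mean of -0.96 with an SE of 1.15. In the RNA processing and translation group 10 of 11 genes were tested and 0 passed, with a median of 0.23 that turned to -1.06 with 75th percentile scaling and to -1.33 with quantile scaling. Its members ran from Thor to Ef1gamma, and the list, drawn up by symbols, also holds Rpn6, a proteasome subunit (0.24), and Rpd3, a histone deacetylase (0.91, adjusted p = 0.121). The splicing factor B52 and the RNA-binding protein Hrb98DE had means of -0.39 and -0.40, that of B52 turning to 0.35 without membrane C.

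In the ubiquitin and SUMO group 4 of 5 genes were tested and 1, skpA, rose, beside 5.63% of all tested genes. smt3, which encodes SUMO, was higher on all 4 letters, by 1.48, 1.04, 0.37 and 0.02 (mean 0.73, adjusted p = 0.238). Aos1, a subunit of the SUMO-activating enzyme, had -0.35, -0.31 and -1.14 on A, B and C and 1.65 on D, for a mean of -0.04. DDB1, an adaptor of another ubiquitin ligase, was likewise lower on A and higher on D (mean 0.17). The median of the 4 was 0.45 and turned to -0.59 and -0.34 with 75th percentile and quantile scaling, and it was 0.91 with the dap spike.

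Of the cell cycle group 2 genes were tested and 0 passed. CycB3, a mitotic cyclin, measured 1.80, 0.627 and 1.01 on B, C and D of S6-7, against 0.341, 0.531 and 0.436 on A, B and D of S2-3 (mean difference 1.48, adjusted p = 0.135), and its stages did not overlap. 14-3-3zeta had a mean of -0.38. Metabolism and calcium genes (7 of 9 tested, 0 passed) had a median of 0.15 that turned to -1.14, -1.07 and -0.08 with 75th percentile, quantile and housekeeping scaling, and was 0.06 without membrane C. Secreted hormone and stress genes (4 of 6 tested, 0 passed) had one of 0.08 that turned to -1.12, -1.24 and -0.14 under the same scalings, and was 0.33 without membrane C and 0.37 with the dap spike. Ilp4, an insulin-like peptide, was higher on A, B and D and lower on C (mean 1.04, adjusted p = 0.16; without C 1.49, adjusted p = 0.0256), and scyl and Csp had 0.21 and -0.24. Hsromega, a non-coding RNA of the heat shock response, was 1.90 higher on A and 2.01 lower on D.

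Of the cytoskeleton and trafficking genes 3 of 9 were tested, and 1, ena, rose, beside 5.63% of all tested genes. alphaTub84B, an alpha-tubulin, measured 3.61, 4.00, 2.01 and 6.15 on A to D of S6-7, against 3.82, 3.27, 7.47 and 2.71 at S2-3, with a mean of -0.13, or 0.46 without membrane C. The SNARE protein gene l(1)G0155 (Ykt6) had 0.06. On D alone, the kinase gene Src42A differed by 2.37, lva, a Golgi protein of cellularization, by 1.81 and R, the small GTPase Rap1, by 1.28. The median of the 3 cytoskeleton genes, 0.06, turned to -0.88 and -0.31 with 75th percentile and quantile scaling, and was 0.46 without membrane C and 0.20 with the dap spike. That of the 4 non-coding genes, also 0.06, turned to -1.12, -1.61 and, with housekeeping scaling, -0.09, and was -0.12 without membrane C and 0.94 with the dap spike. Of the 4 non-coding genes 1, roX1, rose, beside 5.63% of all tested genes, and CR32477 had 0.18, Hsromega -0.06 and CR40712 -0.73.

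**Figure D4:**
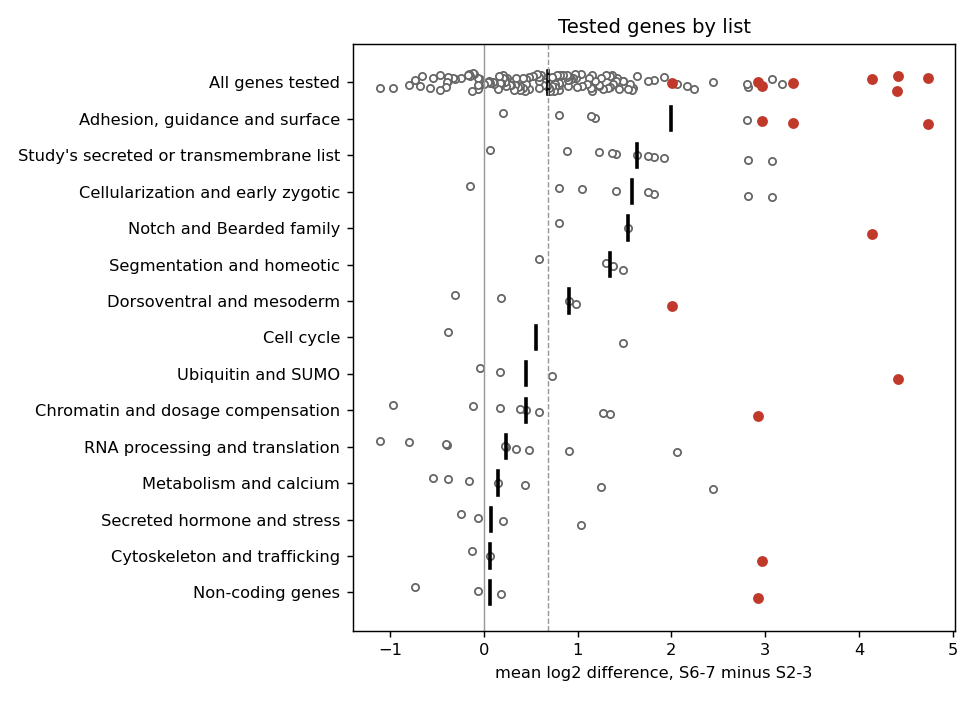
Mean log2 difference S6-7 minus S2-3 of each tested gene by list, with genes past the test in red, others as open circles and the median of each list as a black bar; the dashed line is the median of all 142 genes, 0.69. Adhesion, guidance and surface genes have the highest list median with RP49 scaling (2.00), and the lists of general cell function lie below the dashed line. With the dap spike the Bearded family's 2.37 exceeds the 1.61 of the surface genes. The lists were drawn up with earlier results of these data known.

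With RP49 scaling no gene was lower at S6-7 by the test (0 of 142 by limma, 0 at an unadjusted p under 0.05, 0 by SAM). That count depends on the scaling. At an unadjusted limma p under 0.05, 38 genes were lower and 11 higher with the 75th percentile, and 40 lower and 9 higher with quantile normalization. Relative to RP49 the lowest mean was that of Ef1gamma, a subunit of the elongation complex that loads tRNA. It measured 0.255, 0.137, 0.0964 and 0.320 on A to D of S6-7, against 0.256, 0.289 and 1.50 on A, B and D of S2-3. It was level on A, lower on B by 1.08 and lower on D by 2.23, and the mean was -1.10 (SE 0.52, adjusted p = 0.238). Rpb7, a subunit of RNA polymerase II, had -0.33, -1.58 and -0.47 on B, C and D (mean -0.79, adjusted p = 0.269). ATPsyn-d, a subunit of ATP synthase, had -1.04 on A and -0.03 on D. The other genes lower on every letter measured were CG12817, alph, CG7956, CG15098 and CG17765. With each letter centered on its median, Ef1gamma (-1.90), CR40712 (-1.53), CG15098 (-1.45), CG7956 (-1.37) and CG12817 (-1.26) were lower than the other genes, with adjusted p between 0.00442 and 0.0355.

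For 26 genes spots passed at S6-7 but none on any S2-3 membrane, and 13 of them were measured on at least 2 membranes of S6-7. This filter favors a higher level at S6-7, so their direction is not independent evidence of a rise. Only a bound can be given for these. It sets the mean S6-7 level over all membranes that carry the gene against the lowest passing signal of each S2-3 membrane. The gene's own S2-3 signal was used if brighter. The local background SD of the gene's own spots does not enter, so the bounds are approximate. CG32043 measured 6.20, 2.61, 1.58 and 1.19 on A to D of S6-7 and was at least 20.2-fold higher at S6-7. CG14939, the cyclin Y gene in current annotation, measured 1.72, 0.671 and 10.1 on B, C and D of S6-7 and was at least 18.4-fold higher. CG16742, printed and measured on D only, was at least 11.5-fold higher.

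Further down, Trn, the nuclear import receptor Transportin, was at least 4.19-fold higher, Ptr, a patched-related membrane protein, at least 3.93-fold and CG32372 at least 3.06-fold. trio was at least 2.94-fold higher, tkv, a Dpp receptor, at least 2.82-fold and Egfr at least 2.62-fold. Egfr was measured on all 4 S6-7 membranes, trio and tkv on 1. For BetaTub60D, a tubulin of differentiating cells, ci, the Hedgehog effector, dpr19 and NetA, a netrin, the bounds were 1.65, 1.58, 1.36 and 1.25. One gene, spo, had no bound above 1.

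**Figure D5:**
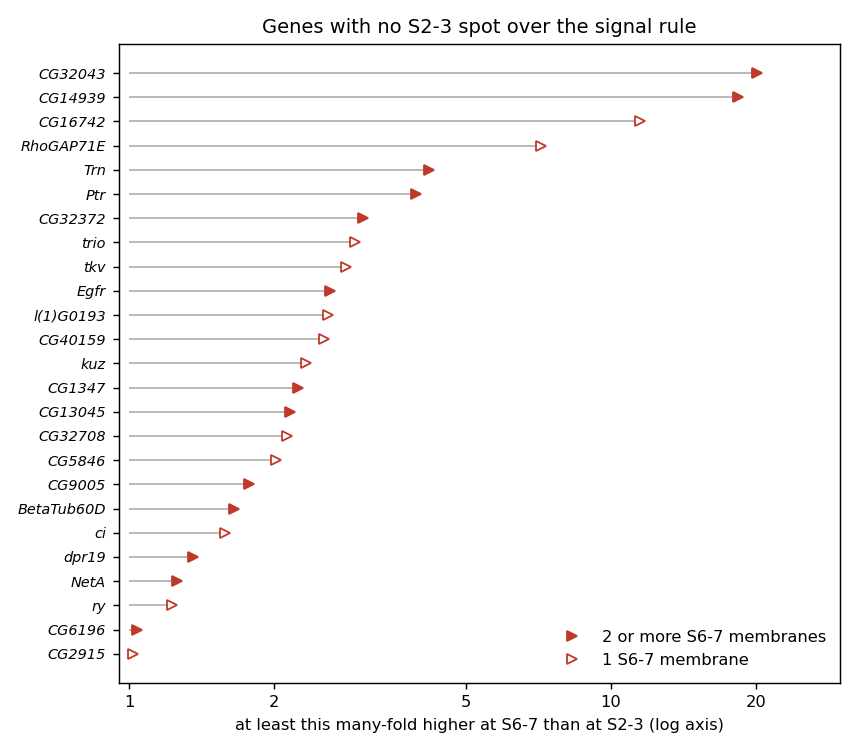
Lower bound of the fold difference S6-7 over S2-3 (log axis) for the 25 genes with no S2-3 spot over the signal rule and a bound above 1; filled triangles are genes measured on 2 or more S6-7 membranes and open ones on 1. CG32043 and CG14939 lead with bounds of 20.2 and 18.4, and most other bounds lie under 5. The genes were selected for passing spots at S6-7 and none at S2-3, and the bounds are approximate.

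The 82 genes with both stages on a single letter had no test. Of them 56 were on D, with 51 above 0 and a median of 1.57, 24 on A, with 22 above 0 and a median of 0.89, and 2 on C, both below 0. On D, dpld measured 6.28 at S6-7 and 0.236 at S2-3, a difference of 4.73. On A, B and C of S6-7 dpld measured only 0.524, 0.495 and 0.398, and 2 of its 12 spots passed at S2-3. Also on D, nmo, a kinase of the Wnt pathway, measured 1.29 at S6-7 and 0.231 at S2-3, or 2.49. ImpL2, a secreted binder of insulin-like peptides, differed by 2.40 on D. On A, Ubp64E, a deubiquitinase, differed by 2.84 and jbug, a filamin, by 2.72.

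Clones of 1 gene gave a second view of the spread on membrane D. For 42 genes at least 2 clones gave both stages, and the median SD between clones was 0.70, close to that between letters. In 32 of the 42 all clones lay above 0, and in 0 all below. Clones were tight for Ilp4 (5 clones, 1.17 to 1.55) and Rtnl1, a reticulon (4 clones, 1.64 to 2.08), and wide for KP78b, a kinase (5 clones, -0.04 to 3.76). CR32477, with 27 clones on D, had 10 with both stages, from -0.32 to 2.30. Genes with at least 5 clones on D, which the library held more often, had a median difference of 1.37 (13 tested of 19), against 0.44 for genes with 1 clone (83 tested of 169). Clones of a gene share its sequence and its membrane and are not replicates of a stage.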

How the data were processed

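The intensity values deposited by the authors give, spot by spot, the raw mean, the local background with its SD, and their difference as net signal, in arbitrary scanner units (VersArray Analyzer) and unscaled. An additional table deposited by the authors holds 1 normalized score per stage for 123 features without names; its scale and centring are unknown (medians 0.436 at S6-7 and 0.0516 at S2-3), and it was used for a tally alone. Arrays have no counting depth, and the number of membranes limits the precision.

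Spots were kept at a signal of at least the background mean plus 1 SD with a net signal above 0, and duplicates at a coefficient of variation of 0.5 or less, where both passed. The qcom filter of the study was not applied. Net signals were divided by the median RP49 signal of the membrane (the study used RP49 and dap, but membrane D has no dap), clones were averaged and log2 was taken. Within-letter differences were tested in limma 3.58.1 (lmFit, eBayes) under R 4.3.3 where at least 2 letters had both stages, with Benjamini-Hochberg adjustment over 158 features (142 genes and 16 introns or intergenic regions) and a threshold of 0.05. The fit and SAM were tested on simulated data. Tables and figures were made with pandas 2.3.3, matplotlib 3.10.9 and NumPy 2.4.6 (Python 3.11.15). Columns of values that could not be matched to a sample: 0.

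Named genes are those past the test, up to 4 passing members of each list and all tested members of small lists, genes named in the study's results, up to 10 of the largest bounds, and the printed controls; Ef1gamma, SNCF, sala and others outside this rule were named after their values were seen. The members and lists were chosen with earlier results of these data known. RefSeq (Release 6) gave current symbols for 238 of 259 genes and was used for names only; the clones were annotated on FlyBase release 5.4, and no sequences or positions are given. Alternatives covered the scaling, background correction, signal and duplicate filters, clones, letters needed, block, SAM, each membrane left out and, added later, centring of each letter.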

Additional observations from a re-analysis of the deposited data

Results flagged for a closer look

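Among 17 groups of 4 membranes that were looked at for a value far from the others, 2 stood apart, both shares of solvent spots over the signal rule; chance alone flags about 1 group in 20. On membrane A 34.7% of solvent spots passed at S6-7 and 1.39% at S2-3, while on the other letters 0% to 0.781% passed. Membrane A entered the comparison of each of the 8 genes that passed. Without it 7 genes were higher, of which 4 (Ama, Tom, Lac and roX1) were among the 8, while skpA, CG17090 and ena could not be tested. The part of the solvent signal in the results was not tested.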

How the results depend on the processing

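The 8 genes kept their direction in all 17 to 22 alternatives in which each could be computed. The number of higher genes was 30 with the mean of RP49, 37 with the dap spike on A to C, 0 with the 75th percentile, 4 with quantile normalization, 54 with no signal rule, 0 with a rule of 2 background SDs (60 genes tested, with roX1 alone of the 8 among them), 27 by SAM, 31 with all 20 membranes and the letter as a replicate block, 23 with the letter as a random block on 8 membranes, 15 with each letter centered (added after the data were seen) and 4 to 24 when 1 letter was left out. On C the dap scale rests on 40 spots, of which only 4 passed at S6-7 and 1 at S2-3. Lower genes numbered 8 with quantile normalization and 5 with centering, and 0 otherwise. The median difference turned to -0.40 with the 75th percentile and -0.49 with quantile normalization. It was 0.48 to 0.81 with 1 letter left out, 0.55 with RP49, actin and tubulin, 0.95 with dap, 0.27 with 2 background SDs (61.7% above 0) and 0.44 with normexp. In the authors' table over all features it was 2.59 (120 of 123 higher). The study called the same number, 123 genes and non-coding sequences, changed, and reports all those genes as up-regulated in at least 1 interval. If the authors' table holds that set, its direction was fixed by selection, and it is not an independent alternative. Of genes above 0, 78.9% in the main values became 30.3% with the 75th percentile and 26.5% with quantile normalization. The causes were not tested. Without a replicate block 8 genes (20 membranes) and 7 genes (8 membranes) were higher, so the letter as a pairing of membranes, a print layout and not a pairing of embryos, changed the calls of roX1 (adjusted p = 0.0841 without it on 8 membranes) and stumps (0.406). With the 75th percentile none of the 8 passed (adjusted p 0.056 to 0.202). Of the 259 genes 117 could not be tested, among them 26 with no S2-3 spot over the rule and the 15 printed on D only, which lack a second letter.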

Other observations

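The library also held introns and intergenic regions, which entered the same fit. Of these, 10 introns had a median difference of 1.06 (from 0.31 to 1.56), with 10 of 10 above 0, and 6 intergenic regions a median of 0.30 (from -0.08 to 3.17), with 5 of 6 above 0. None passed the test in limma (lowest adjusted p = 0.0701), and at an unadjusted p under 0.05 there were 3 introns and 1 intergenic region higher and 0 lower. Vector fragments on membrane D passed the signal rule in 11 of 18 spots at S6-7 and 8 of 18 at S2-3.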
